A study of Mus musculus with 8 samples.

Results

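The amino acid and peptide transporters of the solute carrier superfamily were followed in the Peyer's patches of 8 C3H/HeJ mice, which are clusters of lymphoid follicles in the wall of the small intestine. Members were all probe sets annotated to a single gene whose symbol begins with Slc1a, Slc3a, Slc6a, Slc7a, Slc15a, Slc36a, Slc38a or Slc43a and goes on with a number. This rule found 68 of the 18193 genes that the array's annotation names alone, with 133 of the 34945 probe sets that name them. Of these, 3 are genes on the opposite strand of a transporter (Slc7a6os, Slc36a1os and Slc6a19os, 4 probe sets), and 65 are transporter genes, with 129 probe sets. Only Slc7a6os of the opposite-strand genes was bright enough to be tested, and its log2 difference between OVA and control was 0.00. A probe set was tested when its mean log2 intensity lay above the median of all probe sets, which corresponds to an intensity of 11.9. That left 40 of the 65 transporter genes (69 probe sets) among 11988 genes and 22518 probe sets, and the brightest tested probe set stood for each gene.

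Total RNA of each mouse was read on a single-colour Affymetrix array with biotin-labelled cRNA. Ovalbumin (OVA), an allergenic protein of egg white, was gavaged daily at 40 mg/kg for 28 days, from 6 weeks of age, into 2 females (replicates 2 and 12) and 4 males (replicates 1, 5, 8 and 13). The controls, 1 female (replicate 7) and 1 male (replicate 8), received normal saline on the same schedule, so that within either sex a single control array stood for the untreated state. All mice were of the C3H/HeJ strain, which has a mutated Tlr4 and responds poorly to bacterial lipopolysaccharide. The labels name Peyer's patches as the tissue, but their extraction text names a part of the brain and a patient. Of the markers on the array, all 20 enterocyte markers and all 18 B cell markers were above the filter, against 5 of 13 markers of neurons and glia, with Elavl3, Elavl4, Tubb3, Snap25, Uchl1, Chat, Gfap and S100b below it.

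Dietary protein reaches the small intestine as short peptides and free amino acids. Enterocytes take these up at the brush border through the peptide transporter and several amino acid transporters, and release amino acids into the blood through a different set at the basolateral side. Several members work as heterodimers, in which a heavy chain of the Slc3 family brings a light chain of the Slc7 family to the membrane. Lymphocytes that begin to divide depend on plasma membrane carriers for leucine, glutamine and other neutral amino acids, and transporters of the lysosome return amino acids to the cytosol and report their level to the kinase complex mTORC1.

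Promoter sequences were matched by symbol from RefSeq (GRCm38.p6) for 47 of the 65 transporter genes, 28 of the 40 above the filter. The 250 bases before the start of transcription were searched on both strands. The promoters of Slc3a1 and Slc7a9 are shown because these genes encode the heavy and the light chain of a single cystine and dibasic amino acid transporter and followed each other across the arrays (below). That of Slc7a11 is shown because this cystine transporter is a known target of the response to amino acid shortage. Capitals mark the GATA motif AGATAA in the first and the second sequence, the HNF4 motif CAAAGTCCA in the first, and the amino acid response element TGATGNAA in the last, on either strand. Slc3a1 lies on the plus strand of chromosome 17 (chr17:85028097-85028346), Slc7a9 on the plus strand of chromosome 7 (chr7:35448842-35449091, 1 of 2 listed starts), and Slc7a11 on the minus strand of chromosome 3 (chr3:50443614-50443863).
Slc3a1: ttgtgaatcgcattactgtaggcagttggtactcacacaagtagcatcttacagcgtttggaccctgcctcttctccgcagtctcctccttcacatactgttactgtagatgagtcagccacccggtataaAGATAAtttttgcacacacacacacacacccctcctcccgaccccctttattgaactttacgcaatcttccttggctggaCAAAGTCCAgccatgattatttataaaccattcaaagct
Slc7a9: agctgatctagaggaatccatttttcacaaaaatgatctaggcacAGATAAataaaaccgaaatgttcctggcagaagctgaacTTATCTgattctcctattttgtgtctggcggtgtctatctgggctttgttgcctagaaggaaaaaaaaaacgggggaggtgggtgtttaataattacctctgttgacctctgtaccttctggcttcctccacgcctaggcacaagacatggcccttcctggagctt
Slc7a11: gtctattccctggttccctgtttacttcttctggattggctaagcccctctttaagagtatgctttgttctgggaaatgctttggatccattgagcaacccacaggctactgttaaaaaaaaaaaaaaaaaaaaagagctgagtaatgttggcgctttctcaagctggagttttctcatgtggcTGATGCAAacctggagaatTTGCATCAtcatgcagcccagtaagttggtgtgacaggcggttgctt
The GATA motif, bound by GATA4 and GATA6 among other factors, began 119 bases before the start of Slc3a1, and 205 and 166 bases before that of Slc7a9. The 47 genes had 68 listed promoters, as a gene can have several starts. The GATA motif was present in 5 of the 68 (7.35%), which belong to 4 genes, and in 9.99% of all 32851 promoters. The HNF4 motif, named for a factor of enterocytes, began 39 bases before the start of Slc3a1 and was in 1 of the 68, against 0.384% of all. The amino acid response element lay 66 and 47 bases before the start of Slc7a11, once on each strand. With promoters of Slc7a7 and Slc6a21 it was present in 4 of the 68 (5.88%), against 3.45% of all promoters. The HNF1 motif GTTAATNA was in 3 of the 68 (Slc6a13, Slc6a16 and Slc6a20a; 2.33% of all), the CDX2 motif TTTATGG in 1 (Slc7a15; 2.43%), the antioxidant response element TGACNNNGC in 9 (10.2%), and the lysosomal gene motif TCACGTGA in 0 (0.785%). A match shows that the letters are in the window and no more.

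Markers of the cell types of the patch and gut wall differed between arrays. Female OVA 12 and male OVA 8 had the highest B cell markers: the mean log2 intensity of 18 B cell markers, minus its mean over all 8 arrays, was 0.57 and 0.65 there, between -0.31 and 0.08 in the other OVA arrays, and -0.31 and -0.45 in the female and the male control. The enterocyte markers were lowest on the same arrays, at -0.56 and -0.31 against -0.09 to 0.24 elsewhere. Their summed intensity ran from 46821 to 52554 in controls and from 35427 to 52146 in OVA mice, and that of the B cell markers from 7465 to 9288 and from 8591 to 16844. Markers of the proximal small intestine were lowest in the OVA females 2 and 12 (-0.77 and -0.95) and highest in male OVA 5 (0.92), and ileal markers were lowest in male OVA 5 and 8 (-0.87 and -1.29). In such bulk RNA, fewer cells of a type and less RNA per cell cannot be told apart. The part of tissue makeup in the differences given here was not tested.

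The transporters above the filter were spread over all 8 families: 4 of 7 genes of Slc1, 2 of 2 of Slc3, 9 of 20 of Slc6, 9 of 15 of Slc7, 3 of 5 of Slc15, 3 of 4 of Slc36, 7 of 9 of Slc38 and 3 of 3 of Slc43. By role, 9 of 12 genes of apical uptake in enterocytes and all 7 of basolateral exit were measured. Of the carriers of glutamate and neurotransmitters and their Slc6 relatives, 6 of 15 were. The 25 genes below the filter reached at most 17 on any array, with a median highest intensity of 6.46. They include Slc6a14, a broad amino acid transporter of the distal gut and airway (at most 6.55), Slc6a18 (at most 10.9), the arginine transporter Slc7a2 (at most 6.46) and the peptide transporter Slc15a2 of kidney and brain (at most 10.4). Closest above the filter were Slc1a3, Slc38a3 and Slc43a1, and closest below it Slc1a7, Slc6a3 and Slc1a2.

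The comparison of OVA with saline asked which transporter transcripts differed in gut lymphoid tissue when an egg allergen was fed for weeks. No transporter passed the test, and the group as a whole leaned slightly to the lower side. With a limma fit of treatment and sex and Benjamini-Hochberg adjustment over all 22518 probe sets, 0 of the 69 member probe sets had an adjusted p under 0.05 (smallest 0.391), where 0% of all probe sets had. At an unadjusted p under 0.05 there were 2 of 69 probe sets, both dim and neither the brightest of its gene, against 11.2% of all probe sets, and 0 of 40 genes against 10.2% of all genes. The estimate was below 0 for 27 of the 40 genes (67.5%) and above it for 13, against 46.3% below and 53.7% above among all genes. The median log2 difference was -0.09, against 0.02 over all genes. Single estimates ran from -0.88 (Slc1a1) to 0.36 (Slc36a2 and Slc7a11). Without the female control the lower share was 52.5% and the median -0.03, and without the male control the median was -0.17. Leaving out female OVA 12 and male OVA 8 together, a choice made after the data were seen, it was -0.02 with 23 of 40 genes lower.

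By the median, intensities of the transporters differed more between OVA mice than those of all genes. The SD of log2 over the 6 OVA arrays had a median of 0.25 for the 40 genes and of 0.17 for all 11988. Single transporters ran from 0.05 to 0.76, and the sets were not matched for intensity. The lowest of the 8 values lay in female OVA 12 for 10 of the 40 (25%, against 11.9% of all genes) and in male OVA 8 for 12 (30%, against 18%). Genes whose OVA values all lay above both controls numbered 1 of 40 (Slc36a2), against a background of 7.99%, and those below both numbered 2 (Slc38a10 and Slc6a17), against 4.65%.

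**Figure D1:**
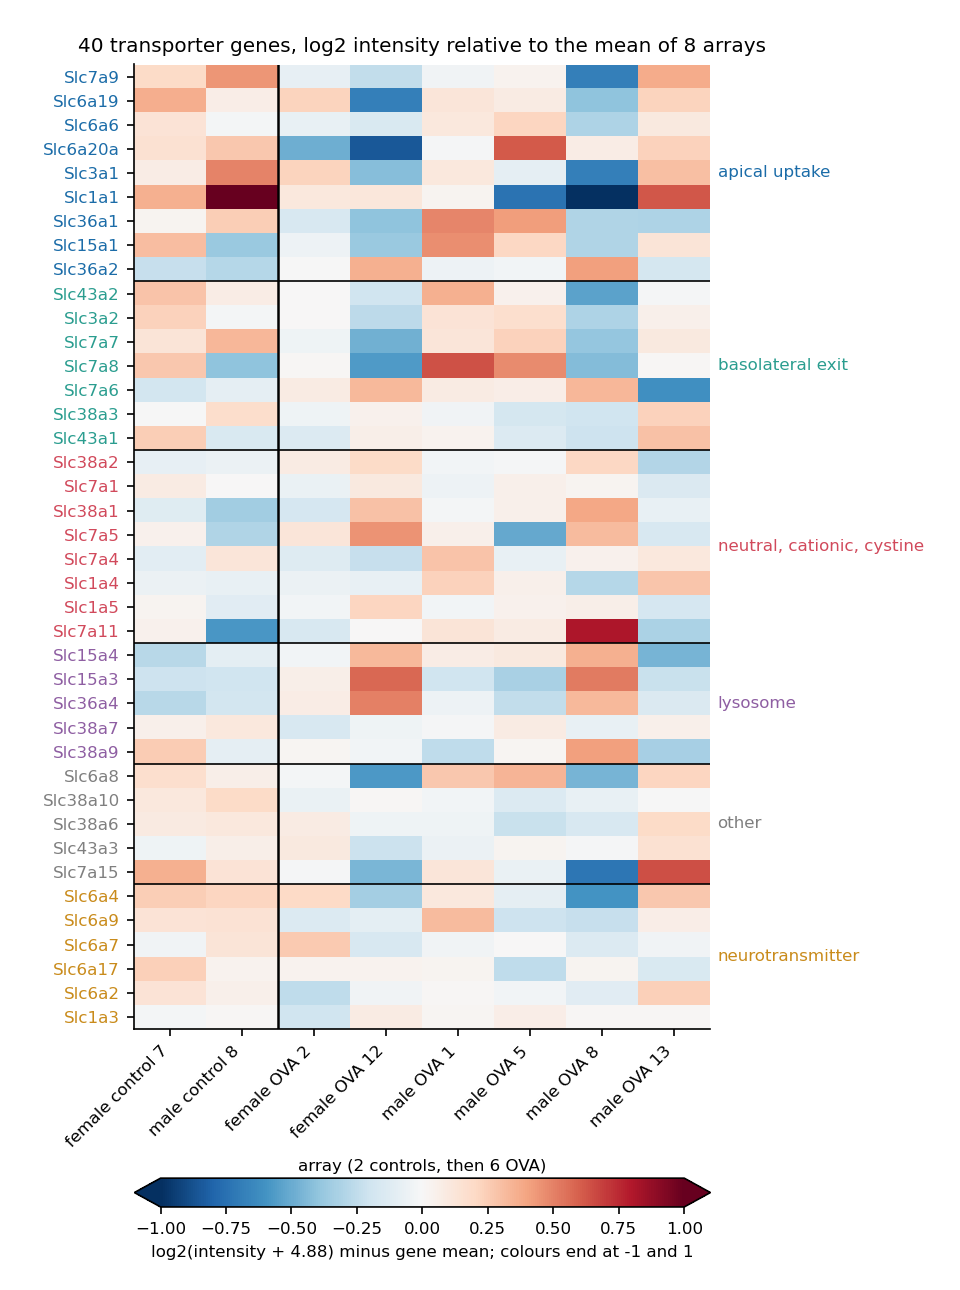
Each row is a transporter gene above the filter, grouped by role, and each column an array. The colour gives the log2 intensity minus that gene's mean over the 8 arrays, and the apical genes are mostly below their mean in female OVA 12 and male OVA 8, where the lysosomal genes Slc15a3, Slc15a4 and Slc36a4 are above theirs.

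Genes of apical uptake, which bring amino acids and peptides from the gut lumen into the enterocyte, were lower in OVA mice for 7 of the 9 measured, with a median log2 difference of -0.30 and none past the test. In the same comparison all 20 enterocyte markers had estimates below 0 (median -0.24) and all 18 B cell markers above 0 (median 0.58), with none past the test, and their part in the difference was not tested. Slc7a9, the light chain of the cystine and dibasic amino acid transporter, read 1272 in the female and 1519 in the male control, 1055 and 941 in female OVA 2 and 12, and 1091, 1146, 692.5 and 1441 in male OVA 1, 5, 8 and 13. Only male OVA 13 was above the lower control, so that the groups overlapped by a single array. Its log2 difference was -0.44 ± 0.24 (SE; adjusted p = 0.50), and -0.30 without female OVA 12 and male OVA 8. The heavy chain Slc3a1, which places Slc7a9 in the brush border, read 516 and 694 in the female and male control, 572 and 363 in the OVA females, and 527, 460, 302 and 604 in the OVA males, with a difference of -0.40 ± 0.27 (SE). Its lowest values lay on the same arrays as those of Slc7a9, male OVA 8 and female OVA 12, and 3 OVA arrays were above the female control.

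Slc6a19, the main neutral amino acid transporter of the brush border, read 1325 and 1079 in the female and male control. In the OVA females it was 1202 and 640.5, and in the OVA males 1119, 1087, 779 and 1204. The groups overlapped, as 4 of the 6 OVA arrays lay between the controls, and female OVA 12 and male OVA 8 stood below them. The difference of -0.30 ± 0.26 (SE) was -0.01 without those arrays. Its second probe set above the filter was lower as well (-0.19 ± 0.29, SE).

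Slc1a1, a carrier of glutamate, aspartate and cysteine, varied most, with a 6.20-fold range between arrays. It read 179 in the female and 288 in the male control, 150 and 151 in the OVA females, and 142, 81.3, 46.4 and 216 in the OVA males 1, 5, 8 and 13. All OVA arrays but male OVA 13 were below both controls. The difference was -0.88 ± 0.50 (SE; adjusted p = 0.514), its other probe sets were at -0.71 and -0.42, and leaving out single arrays moved it from -1.42 to -0.25. In both other probe sets the OVA males were below the male control. The OVA females were above the female control there, unlike in the brightest probe set. The lowest arrays, male OVA 5 and 8, are those with the lowest ileal markers (-0.87 and -1.29, against -0.03 to 0.55 elsewhere), and the part of gut position was not tested. The ileal markers comprise 10 of 11 genes, as the bile acid transporter Slc10a2 was below the filter, and their summed intensity ran from 17901 to 19117 in controls and from 9280 to 19126 in OVA mice.

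Slc6a20a, the proline and imino acid transporter, read 634 and 687 in the female and male control, 403 and 315 in the OVA females, and 565, 872, 600 and 670 in the OVA males. The OVA females were the lowest arrays and male OVA 5 the highest, as for the proximal markers, whose part was not tested. Of those, 11 of 12 were above the filter (Hephl1 was below it), with a summed intensity from 13464 to 17575 in controls and from 8248 to 23283 in OVA mice. Its difference between OVA and control was -0.40 ± 0.22 (SE; adjusted p = 0.51), and -0.04 to -0.82 when single arrays were left out.

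Slc15a1, the proton-coupled peptide transporter that takes up di- and tripeptides, read 88.6 in the female and 53.5 in the male control. OVA females 2 and 12 were at 68.0 and 53.5, and OVA males 1, 5, 8 and 13 at 99.4, 82.2, 56.6 and 77.7. Both OVA females were below their control and all 4 OVA males above theirs, and the difference over both sexes was 0.04 ± 0.25 (SE). The readings of male control 8 and female OVA 12 are equal only after rounding, as all 8 deposited values of this probe set differ. Of the 69 member probe sets, 23 (33.3%) repeated a value on 2 or more arrays, as did 31.8% of all tested probe sets.

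The other apical genes differed less or in the opposite direction. Slc36a2, a proton-coupled carrier of small amino acids, was the only transporter above both controls on all OVA arrays, with 35.3 and 33.9 in the controls, 42.2 and 55.6 in the OVA females, and 40.7, 41.3, 57.8 and 37.0 in the OVA males. Its difference was 0.36 ± 0.17 (SE), with the smallest adjusted p of the 40 genes (0.458), and 0.21 without female OVA 12 and male OVA 8, its highest arrays. Slc36a1, the proton-coupled transporter of glycine and proline at the brush border and in lysosomes, ran from 59.4 to 114 (-0.24 ± 0.24, SE).

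Slc6a6, the taurine transporter, ran from 777 to 1124 in OVA mice, with 1062 and 952 in the female and male control (-0.09 ± 0.15, SE). A dim probe set of Slc6a6 had one of the 2 unadjusted p-values under 0.05 among the 69. It read 8.05 and 13.2 in the controls, 19.0 and 17.7 in the OVA females and 20.9, 21.7, 12.9 and 17.7 in the OVA males (0.57 ± 0.18, SE; adjusted p = 0.391). As its brightest probe set, at -0.09, went the opposite way, no direction can be given for the gene.

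**Figure D2:**
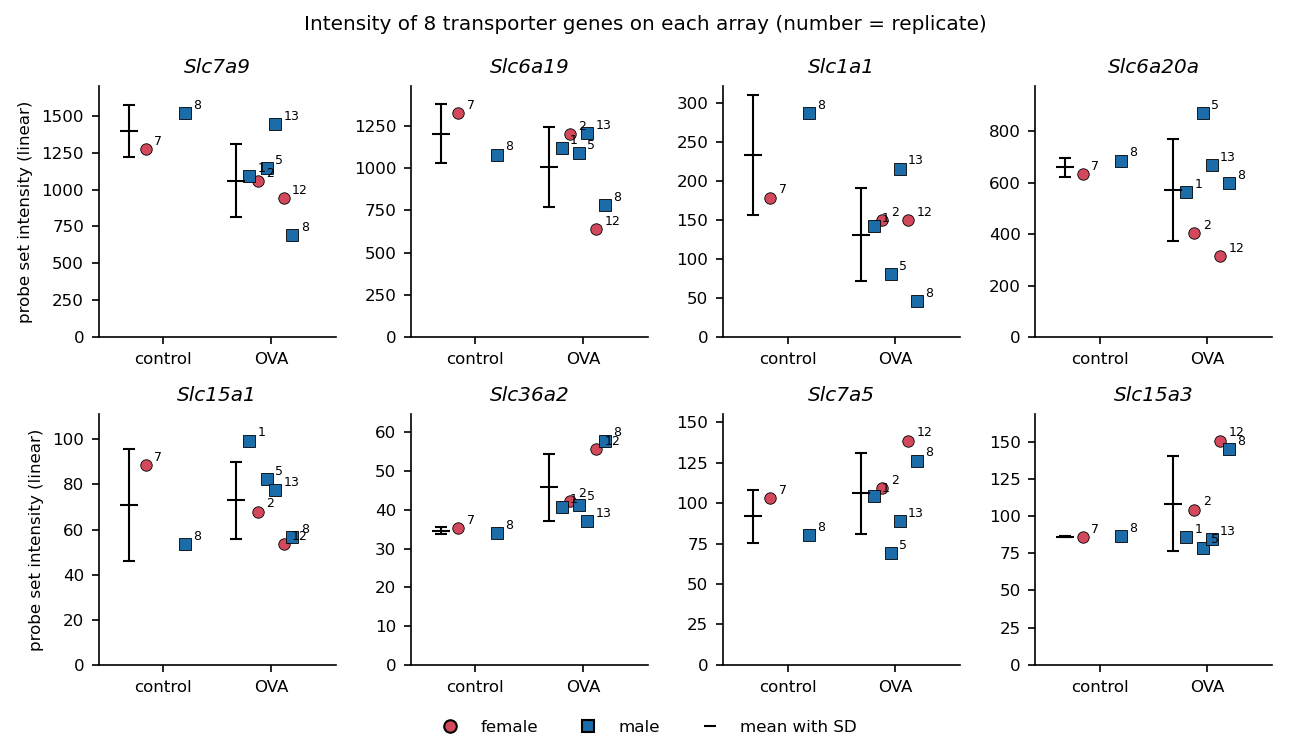
Deposited intensity of single transporter genes on each of the 8 arrays, controls and OVA mice side by side. Females and males are marked apart, and the vertical axis is linear. Slc7a9, Slc6a19 and Slc1a1 are lowest in female OVA 12 or male OVA 8, whereas Slc36a2, Slc7a5 and Slc15a3 are highest there.

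At the basolateral side, where amino acids leave the enterocyte for the blood, 5 of 7 genes were lower (median -0.12) and none passed the test. Slc7a7, the light chain that exports lysine and arginine, read 443.8 and 511.3 in the female and male control, 393 and 289 in the OVA females, and 441, 476, 309 and 434 in the OVA males. Of the OVA arrays only male OVA 5 was above the lower control, and the difference was -0.35 ± 0.18 (SE; adjusted p = 0.493). Both of its probe sets were lower, and the value without female OVA 12 and male OVA 8 was -0.18. Slc3a2, the heavy chain shared by most Slc7 light chains and also the lymphocyte activation antigen CD98, read 870 and 729 in the controls, 745 and 617 in the OVA females and 816, 833, 598 and 766 in the OVA males. The OVA arrays lay on both sides of the male control, and the difference of -0.14 ± 0.16 (SE) became 0.03 without the female control.

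Slc7a8, the light chain for exit of neutral amino acids, read 176 and 109 in the female and male control, 147 and 96.4 in the OVA females, and 228, 203, 106 and 146 in the OVA males (0.06 ± 0.33, SE). Male OVA 1 and 5 were the highest arrays, and without the male control the estimate was -0.54. Slc43a2, a facilitated transporter of branched-chain amino acids, ran from 607 to 1128 in OVA mice around controls of 1074 and 927 (-0.23 ± 0.21, SE), while a dimmer probe set was at 0.11. Slc7a6, a light chain like Slc7a7, was at 0.21 ± 0.23 (SE), with its second probe set at -0.10. The dim genes Slc38a3, a glutamine transporter, and Slc43a1 were at -0.12 and -0.05, and both changed sign or reached 0.00 when some single array was left out.

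Carriers through which cells take up neutral and cationic amino acids and cystine, used by lymphocytes as well as by other cells, were higher in OVA mice for 6 of 8 genes, with a median of 0.10, and none passed the test. Slc38a1, a sodium-coupled glutamine transporter, read 304 and 260 in the female and male control, 295 and 408 in the OVA females, and 327, 343, 435 and 314 in the OVA males. All OVA arrays but female OVA 2 were above both controls, and male OVA 8 and female OVA 12 were highest. The difference was 0.32 ± 0.17 (SE; adjusted p = 0.495), its second probe set was at 0.26, and without those arrays it was 0.18. Slc7a5, the large neutral amino acid transporter that supplies leucine to dividing lymphocytes, read 103 and 80.4 in the female and male control, 109 and 139 in the OVA females, and 104, 69.0, 126 and 89.1 in the OVA males (0.23 ± 0.20, SE). The same arrays were highest, and the value without them was 0.09.

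Slc7a11, the cystine and glutamate exchanger whose promoter is shown above, read 18.8 and 10.5 in the female and male control, 15.6 and 18.1 in the OVA females, and 20.2, 19.4, 35.3 and 13.6 in the OVA males. Male OVA 8 stood above all others, the groups overlapped, and the difference of 0.36 ± 0.29 (SE) was -0.12 without the male control. Slc1a5, a glutamine transporter of proliferating cells, was dim, between 16.1 and 22.5 (0.08 ± 0.11, SE). Slc38a2, the glutamine and alanine transporter induced by amino acid shortage, ran from 670 to 947 in OVA mice, with 776 and 788 in controls (0.11 ± 0.14, SE), and its second probe set was at -0.05. Slc7a1, the cationic amino acid transporter, varied little, between 372 and 442 on all 8 arrays (-0.05 ± 0.10, SE). Slc1a4, a carrier of alanine, serine and cysteine, was at 0.08 ± 0.15 (SE), while a dim probe set of it was at -0.26 ± 0.11 (SE), with the other unadjusted p under 0.05 among the 69 probe sets (adjusted p = 0.425). Slc7a4, an orphan relative of the cationic carriers, was at -0.05 ± 0.11 (SE).

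Transporters of lysosomes and endosomes, which return amino acids and peptides to the cytosol, were higher in 3 of 5 genes (median 0.26), and none passed the test. Slc36a4, a high-affinity carrier of proline and tryptophan, read 77.8 and 83.2 in the female and male control, 101 and 138 in the OVA females, and 92.0, 79.6, 120 and 86.0 in the OVA males. All OVA arrays but male OVA 5 were above both controls, with a difference of 0.34 ± 0.18 (SE; adjusted p = 0.502). Slc15a3, an endosomal carrier of histidine and bacterial peptides in immune cells, read 85.7 and 86.4 in the controls, 104 and 151 in the OVA females and 86.0, 78.7, 145 and 84.5 in the OVA males (0.31 ± 0.24, SE). Only female OVA 2, female OVA 12 and male OVA 8 were above the controls. Slc15a4, its relative needed for endosomal Toll-like receptor responses of B cells and dendritic cells, read 84.1 and 96.1 in controls, 101 and 130 in the OVA females and 109, 111, 133 and 73.2 in the OVA males (0.26 ± 0.21, SE).

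Without female OVA 12 and male OVA 8 the differences of these lysosomal genes were 0.17 for Slc36a4, 0.08 for Slc15a3 and 0.10 for Slc15a4. On those arrays the mean log2 intensity of the 5 lysosomal genes was 0.27 and 0.31 above its mean over all arrays, against -0.22 to -0.01 on the other 6, and the B cell markers were 0.57 and 0.65 above theirs. The T cell markers, 16 of 17 above the filter, stood at 0.33 and 0.37, and their summed intensity ran from 1126 to 1272 in controls and from 1258 to 1886 in OVA mice. The part of these cells in the difference was not tested. The lysosomal arginine sensor Slc38a9 was at -0.09 ± 0.19 (SE), with other probe sets of the opposite sign, and the glutamine transporter Slc38a7 was at -0.12 ± 0.09 (SE).

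**Figure D3:**
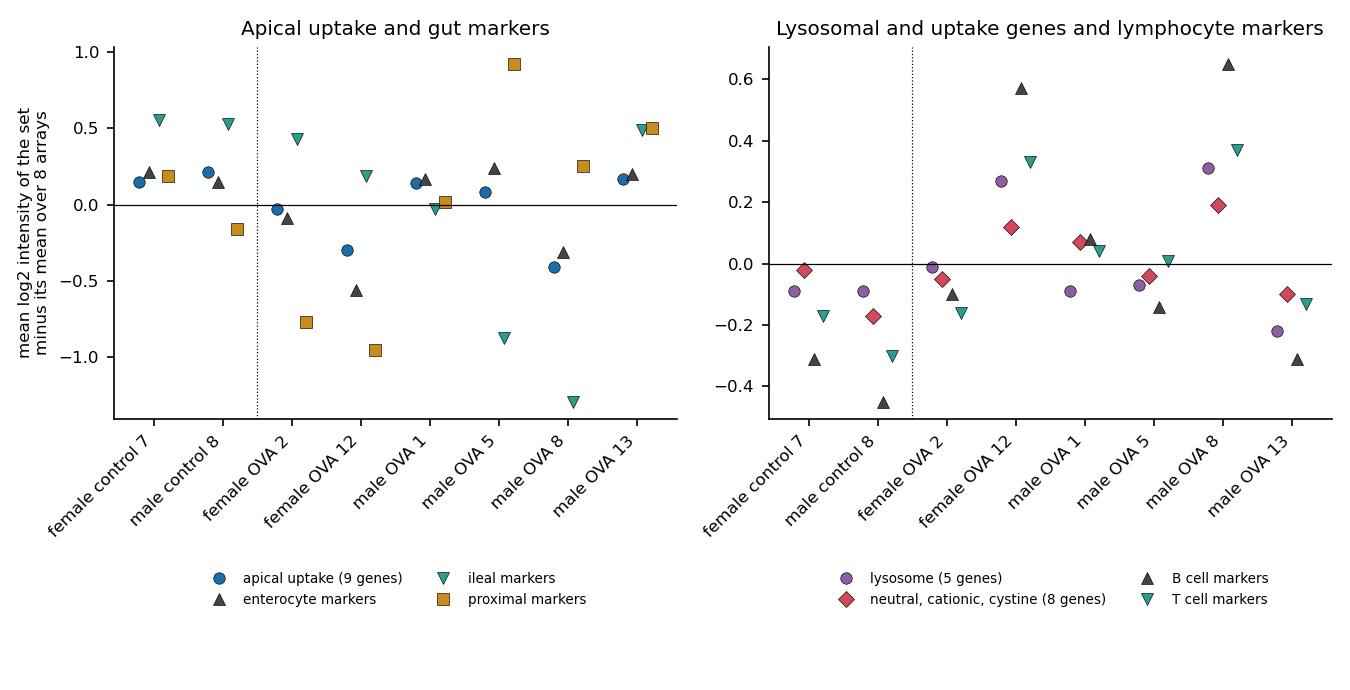
Points give, for each array, the mean log2 intensity of a set of genes minus its mean over the 8 arrays, with a dotted line between controls and OVA mice. The 9 apical genes are at -0.30 and -0.41 in female OVA 12 and male OVA 8, where the 5 lysosomal genes are at 0.27 and 0.31 and the B cell markers at 0.57 and 0.65.

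Among the carriers of glutamate, glycine, monoamines and other neurotransmitters and their Slc6 relatives, all 6 measured genes had estimates below 0 (median -0.15), none past the test. Slc6a4, the serotonin transporter, which enterocytes use to clear serotonin, read 224 and 220 in the female and male control, 217 and 148 in the OVA females, and 203, 176, 123 and 228 in the OVA males. Female OVA 12 and male OVA 8 were again lowest, male OVA 13 was above both controls, and the difference of -0.30 ± 0.23 (SE) was -0.09 without the lowest arrays. Slc6a17, a vesicular neutral amino acid transporter, was below both controls in all OVA arrays by a narrow margin, with controls of 25.3 and 21.42 and OVA values from 16.6 to 21.41 (-0.16 ± 0.11, SE). Its second probe set above the filter overlapped, with controls of 18.95 and 16.69 and OVA values from 13.99 to 18.81 (-0.09 ± 0.13, SE). The glycine transporter Slc6a9 was at -0.20 ± 0.15 (SE), and the norepinephrine transporter Slc6a2 at -0.14 ± 0.13 (SE). The proline transporter Slc6a7 was at -0.06 and the glutamate transporter Slc1a3 at -0.01, close to 0 against SEs of 0.13 and 0.10. Slc6a2 and Slc1a3 were dim, and only 1 of 4 and 1 of 6 of their probe sets lay above the filter.

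The remaining 5 measured genes had estimates below 0 as well (median -0.20). Slc38a10, a glutamine and glutamate carrier, read 587 and 626 in the female and male control, 522 and 551 in the OVA females, and 536, 495, 518 and 543 in the OVA males. All OVA arrays were below both controls (-0.20 ± 0.09, SE; adjusted p = 0.462). Of its 6 probe sets above the filter the others ran from -0.07 to 0.21, so that the gene has no single direction. Slc6a8, the creatine transporter, read 1061 and 983 in the female and male control, and from 632 to 1194 in OVA mice (-0.20 ± 0.24, SE). Without female OVA 12 and male OVA 8 its difference was 0.05. Its second probe set read 744 and 660 in the female and male control and from 368 to 658 in OVA mice. There all OVA arrays were below both controls (-0.44 ± 0.24, SE; adjusted p = 0.505). Slc7a15 was at -0.35 ± 0.31 (SE), Slc38a6 at -0.13 and the purine transporter Slc43a3 at -0.03.

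**Figure D4:**
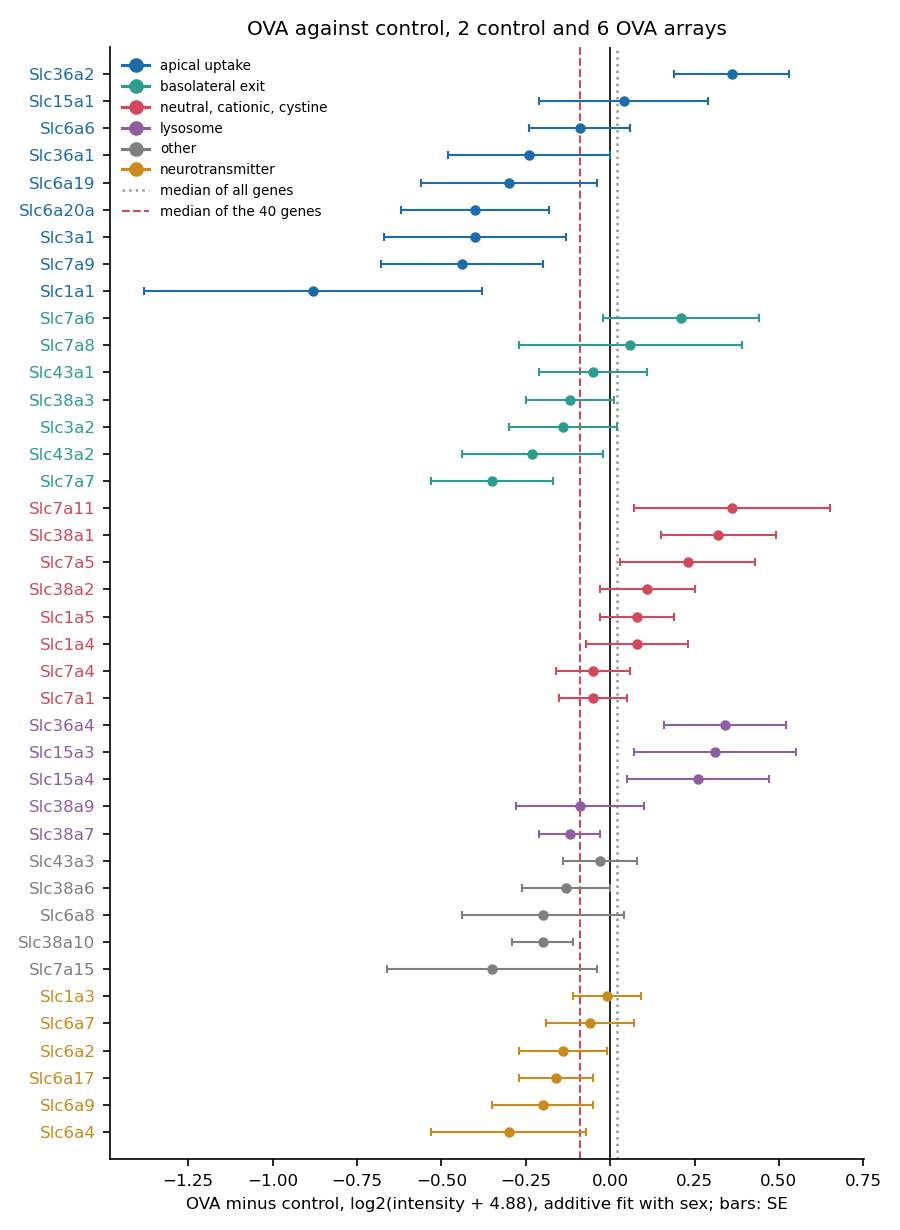
Points give the log2 difference of OVA minus control for the 40 transporter genes above the filter, coloured by role, with lines for 1 SE on either side and a vertical line at 0. Estimates run from -0.88 (Slc1a1) to 0.36 (Slc36a2 and Slc7a11), 27 of the 40 are below 0, and none passed the test.

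Between the sexes, 0 of the 69 probe sets had an adjusted p under 0.05 (smallest 0.901), where 12 of all 22518 (0.0533%) had, and at an unadjusted p under 0.05 there were 2 of 69 probe sets (2.9%, against 5.41% of all) and 2 of 40 genes (5%, against 5.32%). The genes were Slc6a20a, with a log2 difference of females minus males of -0.68 ± 0.20 (SE; adjusted p = 0.901), and Slc7a4, at -0.26 ± 0.10 (SE; adjusted p = 0.901). For Slc7a4 the females read 40.3, 39.6 and 36.8 and the males 48.1, 54.4, 41.3, 45.2 and 47.7, without overlap. The share of all genes that separated the sexes in this way was not computed. The other probe set of Slc7a4 above the filter overlapped (-0.18 ± 0.13, SE). There the females read 21.81, 24.78 and 25.12, and male OVA 8, at 21.46, lay below them all. For Slc6a20a the female control, at 634, lay within the male range of 565 to 872. Slc7a5 was higher in females by 0.35 ± 0.18 (SE), and Slc7a7 was at -0.26 ± 0.16 (SE).

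Whether OVA mice differed from their control alike in both sexes was asked of 4 group means, each control being 1 array. The adjusted p was under 0.05 for 0 of 69 probe sets (smallest 0.485; 0% of all probe sets), and at an unadjusted p under 0.05 there were 3 of 69 probe sets (4.35%, against 8.2% of all) and 1 of 40 genes (2.5%, against 7.09%). The gene was Slc15a1, for which the OVA effect in males minus that in females was 1.02 ± 0.40 (SE; adjusted p = 0.582). Slc7a8 followed with 1.11 ± 0.60 (SE) and Slc6a20a with 0.78 ± 0.37 (SE). A dimmer probe set of Slc1a1, singled out after its values were seen, gave -2.91 ± 0.56 (SE; adjusted p = 0.485). It read 37.99 in the female control and 87.3 and 62.9 in the OVA females, but 123 in the male control and 27.8, 19.6, 19.9 and 44.3 in the OVA males. The other dimmer probe set of Slc1a1 gave -1.57 ± 0.49 (SE). Both dimmer probe sets were among the 3 of 69 with an unadjusted p under 0.05. In both, the OVA females were above their control and the OVA males below theirs. The brightest probe set of Slc1a1 gave -1.17 ± 0.99 (SE), and there the OVA females were below their control as well.

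Transporters that form a complex, and transporters tied to a cell type, were set against each other over the 8 arrays in 7 pairs, by Pearson's r and Spearman's rho on the log2 scale with an exact two-sided permutation test over 40320 pairings and adjustment over the 7. The chains Slc3a1 and Slc7a9 had r = 0.91 (p = 0.00144 by exact permutation, 0.0101 after adjustment), while rho was 0.79 (0.0643 after adjustment). Without female OVA 12 and male OVA 8, the 2 arrays farthest from the median of the first measure in each of the 7 pairs, r was 0.68, and within the OVA mice it was 0.89. Whether these chains ran closer to each other than to other brush border genes was not tested. Slc3a2 and Slc7a8 had r = 0.86 (p = 0.00551 by exact permutation, 0.0193 after adjustment) and a rho of 0.86 (0.0643 after adjustment), and r was 0.78 without both arrays and 0.94 within the OVA mice. Without female OVA 12 alone the adjusted value by exact permutation was 0.0583 for both of these pairs. Without male OVA 8 alone it was 0.0759 for Slc3a1 with Slc7a9 and 0.0542 for Slc3a2 with Slc7a8, so that over 7 arrays the pairs missed the threshold while r stayed between 0.81 and 0.92.

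In the other pairs r was closer to 0 without those arrays, and farther from 0 within the 6 OVA mice, which include them. Slc3a2 and Slc7a7 had r = 0.83 (p = 0.0196 by exact permutation, 0.0451 after adjustment) and a rho of 0.60 (0.132 after adjustment), and r was 0.00 without them and 0.98 within the OVA mice. Slc3a2 and Slc7a5, which form the leucine transporter, ran in opposite directions with r = -0.66 (exact permutation p = 0.0764, also after adjustment) and rho = -0.60 (exact permutation p = 0.132), and r was 0.03 without them and -0.83 within the OVA mice. Slc7a5 and the B cell markers had r = 0.77 (p = 0.0258 by exact permutation, 0.0451 after adjustment) and a rho of 0.79 (0.0643 after adjustment), and r was 0.35 without them and 0.80 within the OVA mice. Slc1a5 and the B cell markers had r = 0.74 (p = 0.0325 by exact permutation, 0.0455 after adjustment) and a rho of 0.66 (0.118 after adjustment), and r was 0.44 without them and 0.77 within the OVA mice. Slc15a1 and the enterocyte markers had r = 0.70 (p = 0.0531 by exact permutation, 0.062 after adjustment) and a rho of 0.76 (0.0643 after adjustment), and r was 0.38 without them and 0.90 within the OVA mice. Leaving out 1 array moved the adjusted value of Slc3a2 with Slc7a7 above 0.05 for each of the 6 OVA arrays (at most 0.172), that of the B cell markers with Slc7a5 for male control 8 and each OVA array but male OVA 5 (at most 0.172), and that of the B cell markers with Slc1a5 for male control 8 and each OVA array (at most 0.19), all by exact permutation. It brought Slc15a1 with the enterocyte markers to 0.0139 without male control 8 (r = 0.91), and Slc3a2 with Slc7a5 to 0.0475 without female control 7 (r = -0.78), by the same exact permutation test.

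**Figure D5:**
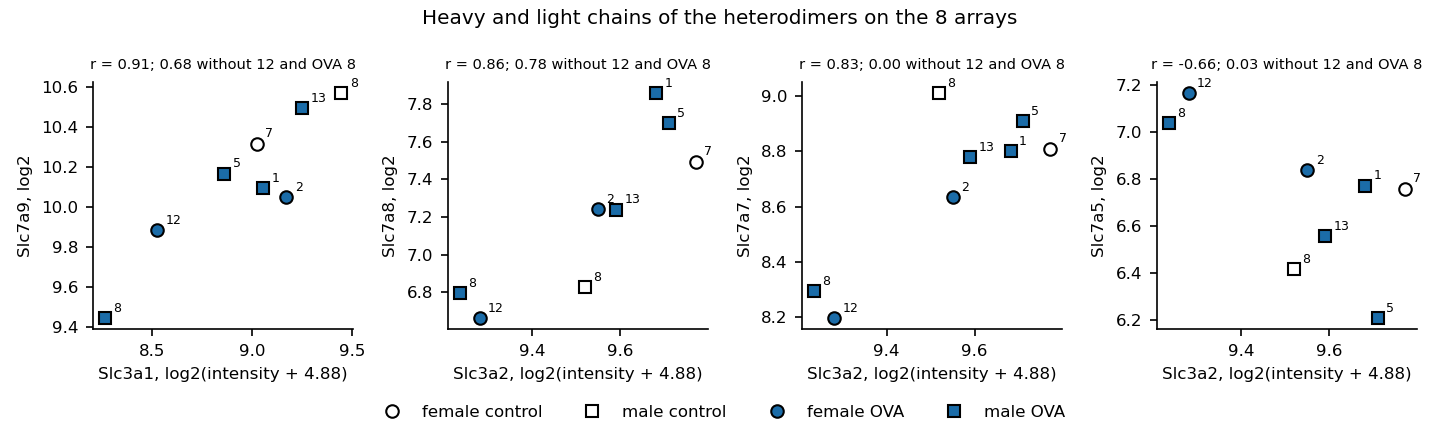
Log2 intensity of transporter partners against each other, 1 point per array, controls and OVA mice marked apart. Slc3a1 and Slc7a9 rise together (r = 0.91, and 0.68 without female OVA 12 and male OVA 8), whereas Slc3a2 and Slc7a5 run in opposite directions (r = -0.66) and show no relation without those arrays (0.03).

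Over the 8 arrays, the genes most like Slc15a1 among 11987 others, by Pearson's r of log2 intensity, were Asah2 (0.972), Fabp2 (0.969) and the transporter Slc7a8 (0.960). Those most like Slc7a5 were Sem1 (0.980), Ccnb2 (0.978) and Mybl2 (0.965). These are the highest of many coefficients over few arrays and are given as a description.

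Genes that act next to the transporters were counted in the same way, and 0 of their members had an adjusted p under 0.05. A list of peptidases and proteins associated with them held brush border enzymes and also enzymes inside cells. Anpep, Mep1a, Mep1b and Dpp4 of this list are enterocyte markers too. Of the 21 genes on the array 19 were above the filter, 16 with lower and 3 with higher estimates (median -0.31). Among all genes 46.3% were lower, with a median of 0.02. An unadjusted p under 0.05 was found for 2 of the 19, near the 10.2% of all genes. Anpep, the aminopeptidase N that releases amino acids from peptides, read 2014 and 2241 in the female and male control, 1773 and 1396 in the OVA females and 1838, 1560, 1125 and 1800 in the OVA males (-0.45 ± 0.19, SE; adjusted p = 0.443). Mep1b, a brush border metalloprotease, was at -0.44 ± 0.17 (SE; adjusted p = 0.419). All 6 OVA values of Anpep were below both controls. Of those of Mep1b all but male OVA 13 were, at 2806 against 2778 in the female control. Of carriers of amino acids in other SLC families, 11 of 15 were measured, with 4 higher, 7 lower (median -0.09) and 0 with an unadjusted p under 0.05. Among them the aromatic amino acid exporter Slc16a10 was at -0.41 ± 0.26 (SE), and the mitochondrial aspartate and glutamate carrier Slc25a12 at 0.48 ± 0.28 (SE).

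Targets of ATF4, the factor that switches on transporters and synthesis enzymes when amino acids are short, were measured for 23 of 25 genes on the array. There were 10 with higher and 13 with lower estimates (median -0.03), 5 of them with an unadjusted p under 0.05, where 10.2% of all genes had one. Asns, the asparagine synthetase induced by amino acid shortage, read 167 and 130 in the female and male control and from 99.9 to 147 in OVA mice (-0.30 ± 0.12, SE; adjusted p = 0.419). Shmt2, a mitochondrial serine and glycine enzyme, was at 0.56 ± 0.21 (SE; adjusted p = 0.413), and the stress factor Atf3 at -0.62 ± 0.21 (SE; adjusted p = 0.409), so that members of the list lay on both sides. Genes through which mTORC1 senses amino acids, 34 of 34 on the array above the filter, had 21 higher and 13 lower estimates (median 0.03), where 53.7% of all genes were higher. An unadjusted p under 0.05 was found for 2 of the 34, against 10.2% of all genes, and these lay on opposite sides. Flcn, which acts on the lysosomal GTPases of this pathway, read 71.9 and 75.4 in controls and from 82.4 to 108 in OVA mice (0.38 ± 0.11, SE; adjusted p = 0.389). Castor2, a relative of the cytosolic arginine sensor, read 88.6 and 85.5 in controls and from 52.8 to 84.8 in OVA mice (-0.35 ± 0.14, SE; adjusted p = 0.42).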

How the data were processed

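The deposited table gives 1 intensity per probe set and array on a linear scale, from 1.86 to 14749, normalized by the authors. MAS5 was used per the submitters' processing notes; its scaling and background steps are not stated in the labels or headers. The 8 array medians ran from 11.6 to 12.3, and precision is limited by having 8 arrays. Nothing says whether the samples were processed independently beyond the numbering of the mice.

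From these deposited intensities log2(value + 4.88) was computed (4.88 is the 25th percentile of all values), without further scaling. After removal of the 64 AFFX control rows, the 22518 probe sets above the median were tested in limma 3.58.1 (R 4.3.3) by its moderated linear model, two-sided, with Benjamini-Hochberg adjustment over all and a threshold of 0.05. Treatment and sex were additive terms (5 residual degrees of freedom). The difference between sexes used 4 group means (4 residual degrees of freedom), the lone controls being assumed to vary like the others. A difference is on the log2(value + 4.88) scale, which understates changes of dim genes. Scripts were tested on simulated data. Python 3.11.15, SciPy 1.17.1 and matplotlib 3.10.9 were used for correlations and figures.

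Members, roles, marker and pathway lists and pairs were chosen with earlier results of these data known. Genes were named by a rule: the 12 brightest transporters, the smallest p-values of each contrast, the largest SDs, a set of known carriers, genes without overlap or with probe sets of opposite sign, and those next to the filter. Other members are named by their role. Some items are not reported here. Alternatives were other pseudocounts, normalizations, filters and variance models, array weights, no sex term, the mean of a gene's probe sets, and leaving out each array.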

Additional observations from a re-analysis of the deposited data

Results flagged for a closer look

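Among the 40 transporter genes, 80 groups of 4 or 6 OVA arrays were examined for a single array far from the rest, and 6 were found. The cut-off has a nominal rate of about 1 in 20. The groups of 4 are part of the groups of 6 and some values repeat, so this rate need not hold here. The share over all genes was not computed, and no excess can be read from the count. Slc15a3, the endosomal peptide carrier, read 145 in male OVA 8 against 78.7 to 86.0 in the other OVA males. Slc7a11, the cystine exchanger, read 35.3 in male OVA 8 against 13.6 to 20.2 in the other 5 OVA mice. Male OVA 8 is also the array with the highest B cell and T cell markers and the lowest ileal markers. Slc7a6, the basolateral light chain, read 25 in male OVA 13 against 43.2 to 52.8. Slc6a7, the proline transporter, read 43.9 in female OVA 2 against 31.5 to 35.8. Slc1a3, a glutamate transporter just above the filter, read 12.9 in female OVA 2 against 15.7 to 16.7 in the other 5 OVA mice, and 16.5 in male OVA 5 against 15.7 to 15.8 in the other OVA males.

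For 2 genes, every OVA female lay below the female control and every OVA male above the male control, which is 5% of the 40 transporters and was also seen for 5.01% of all 11988 genes. The OVA effect in males minus that in females was 1.02 for the peptide transporter Slc15a1 (limma, adjusted p = 0.582) and 0.88 for Slc7a11 (adjusted p = 0.717). Both were read against 1 control array per sex.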

How the results depend on the processing

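No transporter probe set passed the adjusted threshold for OVA against control, for the sexes or for the difference between them under any alternative run. The median OVA difference of the transporters, -0.09, was -0.14 to -0.05 under the other settings with all arrays and -0.17 to -0.03 when single arrays were left out. Of 635 recomputed differences of 34 named genes, 22 changed sign or reached 0.00, in 12 genes. With all arrays these were Slc7a4 with array weights (0.00), Slc1a3 without the sex term (0.00), and, for the mean of all probe sets, Slc6a6 (0.09) and Slc1a4 (-0.06). Without female OVA 12 and male OVA 8 they were Slc6a6 (0.01) and Slc6a8 (0.05). When single arrays were left out the ranges were -0.52 to 0.50 for Slc15a1, -0.54 to 0.57 for Slc7a8, -0.12 to 0.75 for Slc7a11, -0.36 to 0.03 for Slc3a2, -0.47 to 0.03 for Slc6a8, -0.25 to 0.05 for Slc6a6, -0.26 to 0.05 for Slc38a9, -0.28 to 0.15 for Slc43a1, -0.06 to 0.05 for Slc1a3, -0.01 to 0.15 for Slc1a4 and -0.22 to 0.00 for Slc38a3. The cause was not tested.

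Under quantile normalization the adjusted exact permutation p of Slc3a2 with Slc7a7 was 0.0524, of the B cell markers with Slc7a5 0.0585 and with Slc1a5 0.0752. No paired analysis was run, as the labels name no pairs of control and OVA mice.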
